A study of Homo sapiens with 6 samples.

Results

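The genes described here are 44 genes of the endoplasmic reticulum (ER) that fold secretory proteins, clear those that fail to fold, admit new chains into the ER or signal ER stress. They were chosen by name, with earlier results of these data known. Of the 44, 41 were measured in both deposited count tables, which together list 13289 genes and share 12301. Counts of ERO1L, ERO1LB and ATF6B were not analysed here. The cells were NB4, a human line of acute promyelocytic leukemia that all-trans retinoic acid (ATRA) drives toward granulocytes. The 6 RNA-seq libraries came from cells carrying hairpin 1 (shRNA1) or hairpin 2 (shRNA2) against SMARCD2, a subunit of the BAF chromatin remodelling complex, or a control construct (CTRL). Each was kept in 1 µM ATRA or in DMSO, its solvent. Thus 2 knockdown libraries and 1 control library stood in ATRA (labelled differentiated), and 2 knockdown libraries and 1 control library in DMSO (labelled undifferentiated). All cells were of the same line, and the labels give neither the length of treatment nor whether libraries came from separate cultures, so every p-value measures only the spread between these libraries, which may be technical.

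Library totals ran from 29291209 to 58099733 counts, each summed over 2 sequencing runs, and the share of run 1 was 53.1% to 75.9% in ATRA and 54.6% to 80.7% in DMSO, lowest in the control library of each treatment. SMARCD2 stood at 64.2 and 35.6 CPM (counts relative to the TMM-scaled library size) with hairpins 1 and 2 against 122 CPM in the control in ATRA, and at 39.0 and 25.7 against 95.5 CPM in DMSO. The marker sums that follow are relative to the plain library total, without TMM scaling. Of 5 promyelocyte markers, 4 were listed in ATRA (4457 to 6110 CPM in sum) and 5 in DMSO (10630 to 10820 CPM), with ELANE listed in DMSO alone. Of 5 granulocyte maturation markers 5 were listed in ATRA (3565 to 3981 CPM in sum) and 4, without S100A8, in DMSO (109.9 to 139.7 CPM). Of 5 erythroid markers 1 was listed in ATRA, at up to 0.474 CPM, and 0 in DMSO, and of 5 B lymphoid and plasma cell markers 2 were listed in ATRA (34.6 to 35.1 CPM) and 3 in DMSO (4.95 to 6.08 CPM). Of the T lymphoid markers 3 were listed in each treatment, with CD3E in ATRA alone and CD3G in DMSO alone. They summed to 5.43 to 7.96 CPM in ATRA and 14 to 18.4 CPM in DMSO. The epithelial markers summed to 35.6 to 44.3 CPM in ATRA and 51.4 to 57.4 CPM in DMSO. The fibroblast ones summed to 3.96 to 5.12 CPM in ATRA, with 0 of 4 listed in DMSO. The part of these marker shifts in the results was not tested, and in bulk RNA fewer cells of a type and less RNA per cell cannot be told apart.

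Secreted and membrane proteins fold in the ER with the help of the HSP70 chaperone BiP, the HSP90 family member GRP94, lectin chaperones that hold glycoproteins, and disulfide isomerases. When unfolded proteins gather there, the sensors IRE1, PERK and ATF6 set off the unfolded protein response, which slows translation, raises chaperone genes and speeds the removal of misfolded proteins. Promyelocytes make large amounts of granule proteins such as myeloperoxidase, whose folding is known to use calreticulin and calnexin.

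The classical binding site of this response, the ER stress response element (ERSE), is bound by NF-Y at its CCAAT end and by ATF6 at its CCACG end. Promoters of 4 members are shown because they hold the element and because their transcripts did not share a direction under ATRA, as given further on. They are RefSeq windows on GRCh38.p14, from 250 bases before to 50 bases after the gene start and read along the gene. HSPA5 lies at chr9:125241294-125241593 (minus strand), HSP90B1 at chr12:103930160-103930459 (plus strand), CALR at chr19:12938359-12938658 (plus strand) and XBP1 at chr22:28800520-28800819 (minus strand). Capitals mark matches to the ERSE, CCAAT and CCACG with 9 bases of any kind between them, on either strand.
HSPA5: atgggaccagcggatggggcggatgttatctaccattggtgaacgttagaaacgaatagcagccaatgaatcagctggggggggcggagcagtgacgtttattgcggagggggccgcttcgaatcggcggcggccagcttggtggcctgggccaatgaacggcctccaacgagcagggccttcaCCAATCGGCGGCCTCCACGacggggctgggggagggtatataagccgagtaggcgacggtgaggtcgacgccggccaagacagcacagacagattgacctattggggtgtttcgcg
HSP90B1: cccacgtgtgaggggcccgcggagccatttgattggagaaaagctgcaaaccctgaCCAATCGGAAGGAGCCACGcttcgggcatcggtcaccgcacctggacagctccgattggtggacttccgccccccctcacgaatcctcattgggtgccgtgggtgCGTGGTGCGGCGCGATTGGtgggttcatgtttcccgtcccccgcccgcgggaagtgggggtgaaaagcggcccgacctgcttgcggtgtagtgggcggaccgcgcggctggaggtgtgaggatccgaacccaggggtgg
CALR: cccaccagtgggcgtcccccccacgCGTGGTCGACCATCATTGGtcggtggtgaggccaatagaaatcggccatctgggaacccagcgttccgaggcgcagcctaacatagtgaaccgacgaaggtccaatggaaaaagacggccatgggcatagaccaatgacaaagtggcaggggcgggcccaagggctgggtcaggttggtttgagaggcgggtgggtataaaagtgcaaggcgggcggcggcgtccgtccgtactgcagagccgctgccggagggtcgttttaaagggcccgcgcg
XBP1: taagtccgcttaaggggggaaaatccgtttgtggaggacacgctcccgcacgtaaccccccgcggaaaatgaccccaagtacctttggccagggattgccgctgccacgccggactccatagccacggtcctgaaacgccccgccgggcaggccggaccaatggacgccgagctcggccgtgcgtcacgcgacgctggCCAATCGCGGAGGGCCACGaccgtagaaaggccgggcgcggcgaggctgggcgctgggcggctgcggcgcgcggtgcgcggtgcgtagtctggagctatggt
The element starts at base -66 from the gene start in HSPA5, at -52 in XBP1 and, on the opposite strand, at -225 in CALR, while HSP90B1 holds a match at -194 and another, on the opposite strand, at -89. A window was found for 41 of the 44 genes, and 8 of these (19.5%) held the element: these 4, CRELD2, CANX, PDIA6 and ERO1LB, the last under the symbol ERO1B. Of all 27305 genes with such windows, 25 (0.0916%) held it. The related ERSE-II, ATTGG and CCACG with 1 base between them, was found in 3 of the 41 (HYOU1, SDF2L1 and HERPUD1) and in 0.0696% of all genes. All 4 elements were searched on both strands. The element UPRE, TGACGTGG, was found in HYOU1 and DNAJC10 (0.927% of all genes), and in HYOU1 it overlaps an ERSE-II match. The ATF4-type element TGATGNAA was found in HERPUD1 alone, against 4.46% of all genes. A match is a stretch of letters and no evidence of binding.

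The comparison of ATRA with DMSO over the 3 constructs asked how these genes moved as the cells matured. HSPA5, which encodes BiP, was 2.91-fold higher in ATRA, and DNAJC3, a BiP partner that also restrains PERK, was 2.32-fold higher. CALR (calreticulin) was 2.53-fold lower, the transcription factor gene XBP1 2.41-fold lower and DERL3, a channel component of ER-associated degradation, 2.33-fold lower. Of 41 measured genes, 23 rose and 7 fell at an adjusted p under 0.05 (edgeR quasi-likelihood test, adjusted over all 12301 genes), and 11 did not pass. Among all genes tested 36.2% rose and 37.8% fell, against 56.1% and 17.1% of these 41. The median log2 fold change was 0.20 for the 41 genes and -0.01 for all genes. By at least 2-fold, 2 of the 41 rose (4.88%) and 3 fell (7.32%), while 11.9% of all genes rose and 9.28% fell by as much. Scaling to total counts, which placed the median of all genes at -0.14, gave 15 higher and 11 lower among the 41, where it called 29.6% of all genes higher and 46.5% lower. Under it SDF2L1, PDIA3, HERPUD1, EDEM3, ERN1, SEC61A1, SEC61B and SSR1 were no longer called, CANX, P4HB, PPIB and VIMP were called lower, and the uncalled values of HSP90B1, HYOU1 and SYVN1 turned negative.

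**Figure D1:**
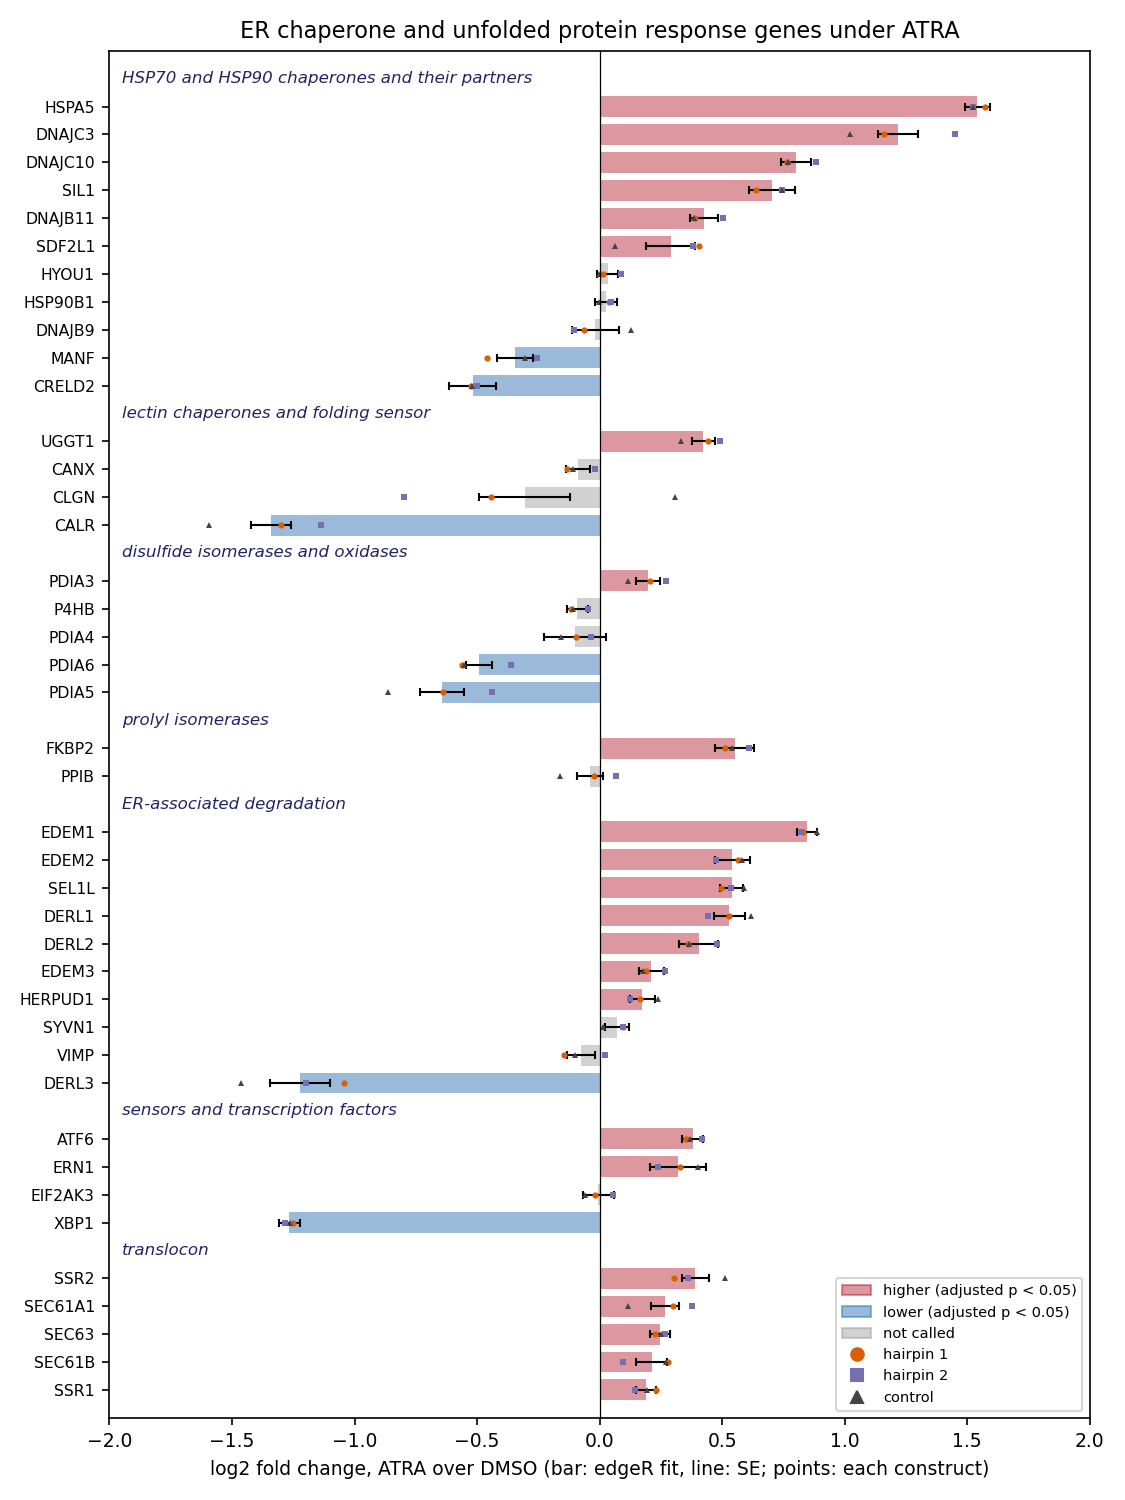
Log2 fold change of the 41 measured genes in ATRA over DMSO, grouped by role. Bars are the edgeR estimate with its SE, coloured by the call at an adjusted p under 0.05, and points are the ratios of CPM within hairpin 1, hairpin 2 and the control. HSPA5 at 1.54 and CALR at -1.34 lie at the ends, and CLGN is the gene whose constructs lie farthest apart, from -0.80 to 0.31.

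Among the HSP70 and HSP90 chaperones and their partners, 6 of 11 genes rose and 2 fell. HSPA5 stood at 747 and 685 CPM with hairpins 1 and 2 and 674 CPM in the control in ATRA, against 251, 238 and 235 CPM in DMSO. The groups were far apart and the constructs close together, with log2 ratios of 1.52 to 1.57 within a construct (fitted log2 difference 1.54 ± 0.05 with its SE, over 3 libraries against 3; adjusted p = 3.3e-08). DNAJC3 stood at 129, 152 and 114 CPM (hairpin 1, hairpin 2, control) in ATRA and at 57.8, 55.8 and 56.2 CPM in DMSO (1.22 ± 0.08, adjusted p = 2.0e-06). Its 3 DMSO libraries were nearly level, while the ATRA libraries spread, highest with hairpin 2. DNAJC10, an ER reductase with a J domain, averaged 205 ± 7.75 CPM in ATRA and 118 ± 9.59 CPM in DMSO (SD, n = 3 each), a log2 fold change of 0.80 ± 0.06 (adjusted p = 4.9e-06). SIL1, the nucleotide exchange factor of BiP, averaged 26.3 ± 1.62 CPM in ATRA and 16.1 ± 1.66 CPM in DMSO and rose by 0.70 ± 0.09 (adjusted p = 1.5e-04). DNAJB11, a J-domain cochaperone, averaged 77.2 ± 1.81 CPM in ATRA and 57.5 ± 3.4 CPM in DMSO and rose by 0.43 ± 0.06 (adjusted p = 1.7e-04). The groups of both genes lay apart. SDF2L1, which binds J-domain proteins of the ER, stood at 12.9, 12.5 and 11.7 CPM in ATRA against 9.75, 9.62 and 11.2 CPM in DMSO, a smaller rise of 0.29 ± 0.10 (adjusted p = 0.026), with a log2 ratio of only 0.06 in the control. Its call was lost without hairpin 1 in ATRA (0.25), hairpin 2 in ATRA (0.27), hairpin 1 in DMSO (0.27) or hairpin 2 in DMSO (0.26), with adjusted p of 0.11, 0.067, 0.073 and 0.075.

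The HSP90 paralog HSP90B1 (GRP94) did not pass the test, at 832, 798 and 740 CPM in ATRA against 809, 773 and 741 CPM in DMSO (0.03 ± 0.04, adjusted p = 0.59). Its groups overlapped. The genome holds processed copies of this gene, and how shared reads were counted is not stated, so its level is uncertain. Whether the same limit holds for other genes, HSPA5 among them, was not examined. HYOU1, a large HSP70-related exchange factor, averaged 186 ± 6.08 CPM in ATRA and 182 ± 10.9 CPM in DMSO (0.03 ± 0.04, adjusted p = 0.51). DNAJB9, a cochaperone that represses IRE1, averaged 9.42 ± 0.563 CPM in ATRA and 9.5 ± 0.348 CPM in DMSO (-0.02 ± 0.10, adjusted p = 0.88). Set against HSP90B1 within a library, there were 0.898, 0.858 and 0.912 HSPA5 counts per HSP90B1 count in ATRA (hairpin 1, hairpin 2, control) and 0.310, 0.308 and 0.316 in DMSO. MANF, which encodes a secreted ER stress protein, averaged 17.7 ± 0.266 CPM in ATRA and 22.5 ± 1.34 CPM in DMSO. It fell by 0.34 ± 0.07 (adjusted p = 0.0026), and the cysteine-rich protein gene CRELD2 fell by 0.52 ± 0.09 (adjusted p = 0.0011). CRELD2 had 12.5, 11 and 11.4 CPM in ATRA against 18, 15.5 and 16.4 CPM in DMSO, with no overlap.

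**Figure D2:**
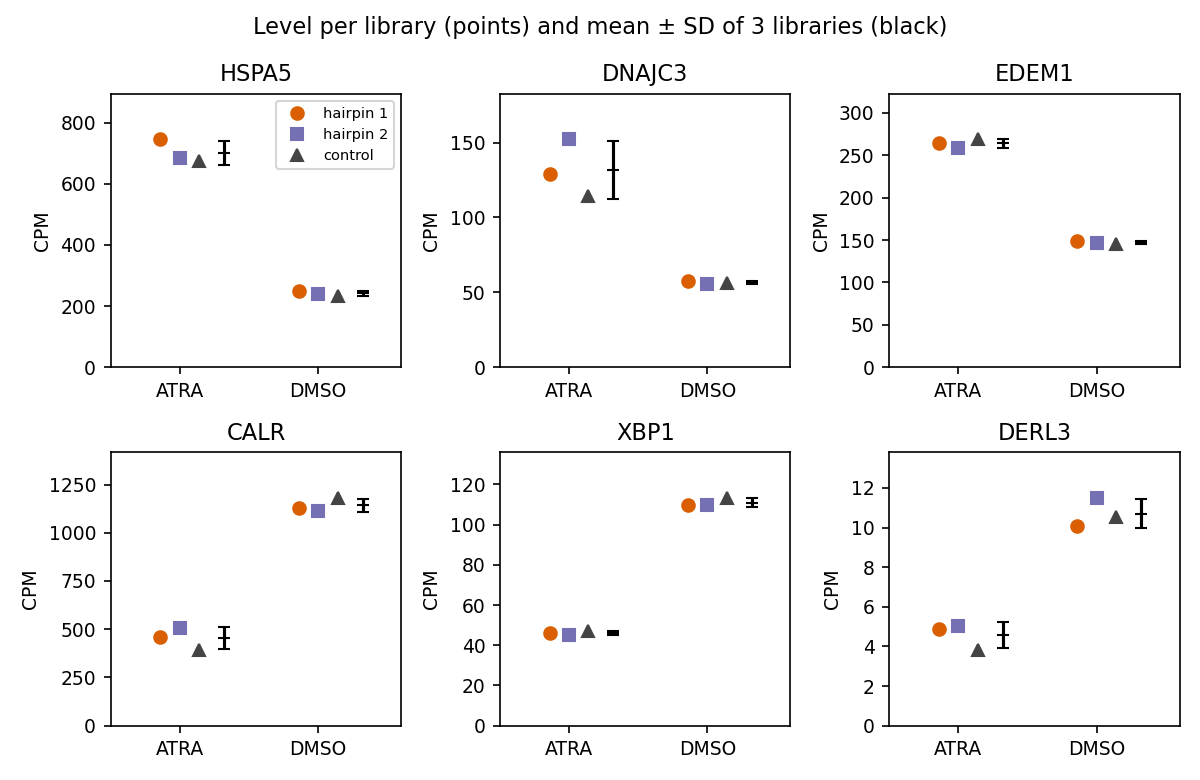
Level in CPM (counts relative to the TMM-scaled library size) of 6 genes in each library, ATRA left and DMSO right in each panel, with the mean ± SD of the 3 libraries in black. HSPA5, DNAJC3 and EDEM1 are higher in every ATRA library than in any DMSO library, and CALR, XBP1 and DERL3 lower.

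Lectin chaperones hold newly made glycoproteins through their trimmed sugars, and UGGT1 marks those still unfolded for another round. Of these 4 genes 1 rose and 1 fell. CALR, the soluble lectin, stood at 459, 506 and 392 CPM in ATRA against 1129, 1113 and 1182 CPM in DMSO (-1.34 ± 0.08, adjusted p = 1.1e-06). The fall was deepest in the control, at a log2 ratio of -1.59, and shallowest with hairpin 2, at -1.14. Its membrane-bound partner CANX (calnexin) stood at 605, 595 and 576 CPM in ATRA and 663, 603 and 621 CPM in DMSO (-0.09 ± 0.05, adjusted p = 0.14), so that its groups overlapped. A library held 0.758, 0.850 and 0.681 CALR counts per CANX count in ATRA and 1.70, 1.85 and 1.90 in DMSO. UGGT1 rose by 0.42 ± 0.05 (adjusted p = 4.6e-05), with 246 ± 4.71 CPM in ATRA and 183 ± 8.31 CPM in DMSO. CLGN (calmegin), the calnexin paralog known from male germ cells, had 7.30, 5.90 and 13.8 CPM in ATRA and 9.92, 10.3 and 11.1 CPM in DMSO (-0.31 ± 0.19, adjusted p = 0.17). Its log2 ratio was above 0 in the control and below 0 with both hairpins. Without the control library of ATRA the value was -0.61 (adjusted p = 0.0054), and without the control of DMSO it was -0.60 (adjusted p = 0.0051).

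Within a library, HSPA5 gave 1.63, 1.35 and 1.72 counts per CALR count in ATRA (hairpin 1, hairpin 2, control) and 0.222, 0.214 and 0.198 in DMSO. This ratio needs no scaling between libraries, and gene length cancels when it is compared across them.

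**Figure D3:**
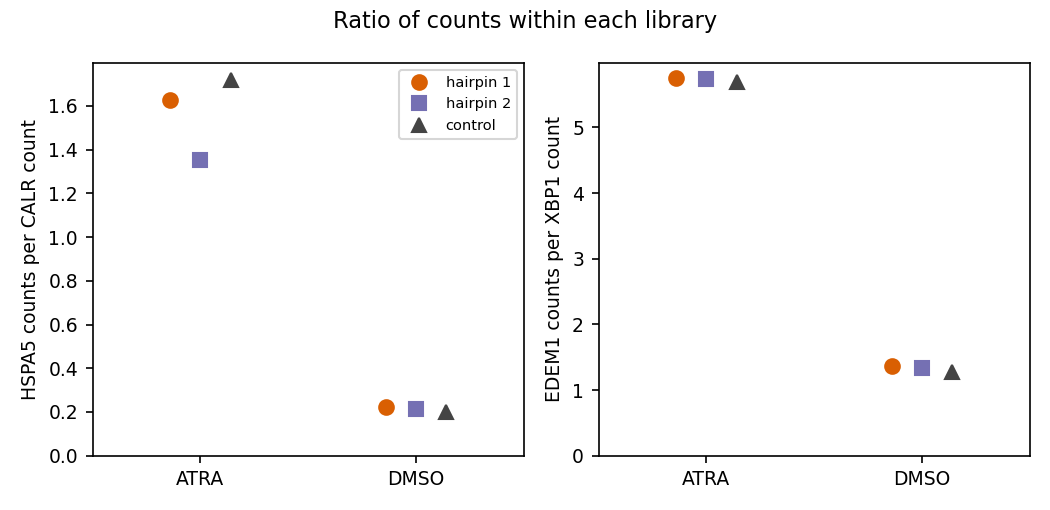
HSPA5 counts per CALR count (left panel) and EDEM1 counts per XBP1 count (right panel) within each library, ATRA left and DMSO right. All 3 ATRA libraries lie above all 3 DMSO libraries, at 1.35 to 1.72 against 0.198 to 0.222 and at 5.70 to 5.76 against 1.28 to 1.36.

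The disulfide isomerases form and shuffle the disulfide bonds of secretory proteins, and of 5 measured genes 1 rose and 2 fell. PDIA5 fell by 0.64 ± 0.09 (adjusted p = 1.9e-04), with 19, 19.3 and 16 CPM in ATRA and 29.7, 26.1 and 29.2 CPM in DMSO. PDIA6, an isomerase known to bind IRE1, fell by 0.49 ± 0.05 (adjusted p = 3.5e-05), with 278, 293 and 259 CPM in ATRA and 411, 377 and 380 CPM in DMSO. Both genes kept their groups apart in every library. PDIA3, the isomerase that works with calreticulin and calnexin, averaged 366 ± 10.8 CPM in ATRA and 319 ± 11.5 CPM in DMSO and rose by 0.20 ± 0.05 (adjusted p = 0.0053). P4HB, the archetypal isomerase, averaged 849 ± 32.6 CPM in ATRA and 904 ± 29.3 CPM in DMSO (-0.09 ± 0.04, adjusted p = 0.081). PDIA4 (-0.10 ± 0.13, adjusted p = 0.50) differed more between hairpins than between treatments, at 192 and 147 CPM with hairpins 1 and 2 and 179 CPM in the control in ATRA, and at 205, 151 and 200 CPM in DMSO. It was the lowest with hairpin 2 in both treatments, by log2 differences to hairpin 1 of -0.39 in ATRA and -0.45 in DMSO. Prolyl isomerases turn the peptide bond before proline. FKBP2 averaged 29.3 ± 1.91 CPM in ATRA and 20 ± 1.82 CPM in DMSO and rose by 0.55 ± 0.08 (adjusted p = 2.9e-04). PPIB (cyclophilin B) averaged 133 ± 7.93 CPM in ATRA and 136 ± 4.13 CPM in DMSO, a value of -0.04 ± 0.05 (adjusted p = 0.52).

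ER-associated degradation draws misfolded proteins back to the cytosol for the proteasome, and 7 of its 10 genes rose while 1 fell. The EDEM genes encode mannosidase-like proteins that tag glycoproteins for disposal. EDEM1 led them at 265, 259 and 269 CPM in ATRA against 149, 146 and 145 CPM in DMSO (0.85 ± 0.04, adjusted p = 3.4e-07). EDEM2 averaged 89.2 ± 7.9 CPM in ATRA and 61.2 ± 3.21 CPM in DMSO and rose by 0.54 ± 0.07 (adjusted p = 1.5e-04). EDEM3 averaged 178 ± 7.82 CPM in ATRA and 154 ± 8.11 CPM in DMSO and rose by 0.21 ± 0.05 (adjusted p = 0.0054). The gain thus grew smaller in the order EDEM1, EDEM2, EDEM3. The ubiquitin ligase scaffold gene SEL1L averaged 137 ± 8.12 CPM in ATRA and 94.2 ± 3.82 CPM in DMSO (0.54 ± 0.05, adjusted p = 1.1e-05), while its ligase partner SYVN1 (HRD1) averaged 46 ± 1.27 CPM in ATRA and 43.8 ± 0.226 CPM in DMSO (0.07 ± 0.05, adjusted p = 0.23). HERPUD1, an adaptor of this ligase, averaged 48.9 ± 2.54 CPM in ATRA and 43.3 ± 0.937 CPM in DMSO. It rose by 0.17 ± 0.05 (adjusted p = 0.013), and its call was lost without the control of ATRA (0.14, adjusted p = 0.063) or of DMSO (0.15, adjusted p = 0.056).

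The derlins, which form the passage through the membrane, moved apart. DERL1 averaged 38.3 ± 3.13 CPM in ATRA and 26.5 ± 0.537 CPM in DMSO and rose by 0.53 ± 0.06 (adjusted p = 7.1e-05). DERL2 averaged 17.1 ± 0.951 CPM in ATRA and 12.9 ± 0.486 CPM in DMSO and rose by 0.40 ± 0.08 (adjusted p = 0.0018). DERL3 stood at 4.88, 5.01 and 3.83 CPM in ATRA against 10.1, 11.5 and 10.5 CPM in DMSO (-1.22 ± 0.12, adjusted p = 2.4e-05), with 108 to 606 counts per library. VIMP (selenoprotein S), which binds derlins, averaged 33.2 ± 1.12 CPM in ATRA and 35 ± 1.41 CPM in DMSO (-0.08 ± 0.06, adjusted p = 0.26).

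Of 4 sensor and transcription factor genes 2 rose and 1 fell. The one that fell was XBP1, whose mRNA IRE1 splices. It stood at 46.0, 45.1 and 47.2 CPM in ATRA and 110, 110 and 113 CPM in DMSO (-1.27 ± 0.04, adjusted p = 3.9e-08). The log2 ratios within a construct, -1.28 to -1.25, spanned less than those of CALR, -1.59 to -1.14. Gene counts do not tell the spliced from the unspliced form. ATF6 rose by 0.38 ± 0.04 (92.6 ± 1.17 CPM in ATRA and 71.2 ± 1.15 CPM in DMSO, adjusted p = 5.6e-05). ERN1, which encodes IRE1, had 163 to 282 counts per library. It stood at 5.79, 5.83 and 6.98 CPM in ATRA against 4.61, 4.95 and 5.29 CPM in DMSO and rose by 0.32 ± 0.11 (adjusted p = 0.031). That call was lost when any library but hairpin 2 in DMSO was left out, with values of 0.28 to 0.33 and adjusted p of 0.065 to 0.12. EIF2AK3, which encodes PERK, averaged 22.6 ± 0.532 CPM in ATRA and 22.7 ± 0.480 CPM in DMSO (-0.01 ± 0.06, adjusted p = 0.94). EDEM1, known as a target of spliced XBP1, and XBP1 itself thus moved oppositely, at 5.76, 5.74 and 5.70 EDEM1 counts per XBP1 count in ATRA and 1.36, 1.33 and 1.28 in DMSO.

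Translocon genes admit nascent chains to the ER, and 5 of 5 rose, by small amounts. SSR2, of the translocon-associated complex, averaged 109 ± 6.38 CPM in ATRA and 82.6 ± 2.83 CPM in DMSO and rose by 0.39 ± 0.05 (adjusted p = 2.0e-04). SSR1, of the same complex, averaged 208 ± 3.08 CPM in ATRA and 182 ± 2.66 CPM in DMSO and rose by 0.19 ± 0.04 (adjusted p = 0.0029). In each of the 5 genes the lowest ATRA library was above the highest DMSO library. That also held for SYVN1, which did not pass the test. The share of all genes that lay apart was not counted, so lying apart adds nothing to these calls. The channel subunit gene SEC61A1 averaged 184 ± 7.56 CPM in ATRA and 153 ± 8.12 CPM in DMSO and rose by 0.27 ± 0.06 (adjusted p = 0.0023). SEC61B, another subunit gene, stood at 35.6, 34.8 and 34.1 CPM in ATRA against 29.3, 32.5 and 28.3 CPM in DMSO and rose by 0.21 ± 0.06 (adjusted p = 0.014). SEC63, which brings BiP to the channel, averaged 235 ± 1.64 CPM in ATRA and 198 ± 2.13 CPM in DMSO and rose by 0.25 ± 0.04 (adjusted p = 5.2e-04). With total counts 3 of the 5, SEC61A1, SEC61B and SSR1, were not called. SEC61B also lost its call without the control of ATRA (0.19, adjusted p = 0.057), hairpin 1 in DMSO (0.19, adjusted p = 0.054) or the control of DMSO (0.19, adjusted p = 0.053). The 41 genes together took 0.690%, 0.689% and 0.658% of all counts in ATRA (hairpin 1, hairpin 2, control) and 0.737%, 0.707% and 0.731% in DMSO.

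Set beside the promoters printed above, the 7 measured genes with an ERSE did not share a direction. HSPA5 rose, CALR, XBP1, PDIA6 and CRELD2 fell, and HSP90B1 and CANX did not pass the test. Of the 3 genes with an ERSE-II, SDF2L1 and HERPUD1 rose and HYOU1 did not pass.

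Other genes of the secretory pathway, from lists that were drawn up by function but with earlier results of these data known, also went both ways. So did the genes as a whole, of which 36.2% rose and 37.8% fell in the same fit. Among 19 further genes of unfolded protein response signalling, 10 rose and 6 fell (median 0.18). CREB3L2, an ER-anchored transcription factor related to ATF6, rose by 2.43 ± 0.05, with 292, 300 and 269 CPM in ATRA and 52.5, 55.5 and 51.5 CPM in DMSO. CEBPB rose by 2.79 ± 0.08, the stress kinase gene MAP3K5 by 1.44 ± 0.05 and DDIT3, which encodes the PERK arm's factor CHOP, by 1.15 ± 0.11, while the apoptosis gene BBC3 fell by 1.16 ± 0.10. ATF4, the PERK arm's main factor, rose by 0.24 ± 0.04. PPP1R15A, which reverses the translation block, had a fitted value of 0.40 ± 0.14 (adjusted p = 0.031) that rested on the control, with log2 ratios of 0.20 with hairpin 1, 0.11 with hairpin 2 and 0.92 in the control. It stood at 0.15 (adjusted p = 0.12) without the control of ATRA and 0.16 (adjusted p = 0.11) without that of DMSO, and it also lost its call without hairpin 1 in ATRA or hairpin 2 in DMSO, with DESeq2 and with total counts. TRIB3, a target of ATF4 and CHOP, had a value of -0.19 ± 0.15 (adjusted p = 0.28), but was called at -0.40 without the control of ATRA (adjusted p = 0.029) or of DMSO (adjusted p = 0.030). Of the proteases that cut ATF6 free, MBTPS1 had a value of -0.12 ± 0.04 (adjusted p = 0.026) and MBTPS2 of 0.18 ± 0.07 (adjusted p = 0.035). Both calls depended on the libraries used: MBTPS1 lost its call without any library but hairpin 2 in DMSO, and MBTPS2 without hairpin 1 in ATRA (0.12) or hairpin 2 in DMSO (0.14), with run 1 columns (0.12) and with total counts (0.05). Apart from TRIB3, each gene named from these lists passed the test in the fit as given.

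Among 14 other ER oxidoreductases 7 rose and 6 fell (median 0.11), with TXNDC5 at -1.14 ± 0.06, TMX4 at -0.82 ± 0.06, QSOX2 at -0.77 ± 0.05 and ERP27 at 1.10 ± 0.16. Of 19 other degradation genes 9 rose and 8 fell (median 0.14), led by the ER ubiquitin-conjugating enzyme gene UBE2J1 at 1.61 ± 0.06 and the lectin gene OS9 at 1.05 ± 0.04, with NGLY1 at -0.71 ± 0.06 and UBE2G2 at -0.67 ± 0.05. Of 20 other targeting and translocation genes 12 rose and 6 fell (median 0.18). TRAM2 stood at -1.38 ± 0.09, SEC62 at 0.95 ± 0.05, SSR4 at 0.74 ± 0.05 and the signal recognition particle receptor gene SRPR at 0.68 ± 0.04. Oligosaccharyltransferase, which attaches the sugar chain, had 1 gene higher and 2 lower of 10 (median -0.02), namely MAGT1 at 0.45 ± 0.04, OSTC at -0.68 ± 0.05 and RPN1 at -0.66 ± 0.05. Of 7 genes of N-glycan trimming 2 were higher and 4 lower, with a median of -0.22. MGAT1, which opens complex glycan synthesis in the Golgi, stood at 1.09 ± 0.04, and the glucosidase genes PRKCSH at -0.57 ± 0.04 and MOGS at -0.33 ± 0.04. Of 19 genes of the COPII coat and ER exit 7 rose and 5 fell (median 0.02). The cargo adaptor gene SEC24D rose by 1.55 ± 0.06, with 92, 95 and 87.6 CPM in ATRA and 29.3, 33.6 and 31.1 CPM in DMSO, and KDELR3, a receptor that returns escaped ER proteins, stood at -0.57 ± 0.18 on 34 to 124 counts per library. The call of KDELR3 was lost with DESeq2, with either run alone and without any library but hairpin 1 in ATRA or hairpin 2 in DMSO. With total counts 4 of the 19 degradation genes, 7 of the 20 translocation genes and 1 of the 7 trimming genes were higher, and 5 oligosaccharyltransferase and 10 COPII genes were lower, under a scaling that called 29.6% of all genes higher and 46.5% lower.

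**Figure D4:**
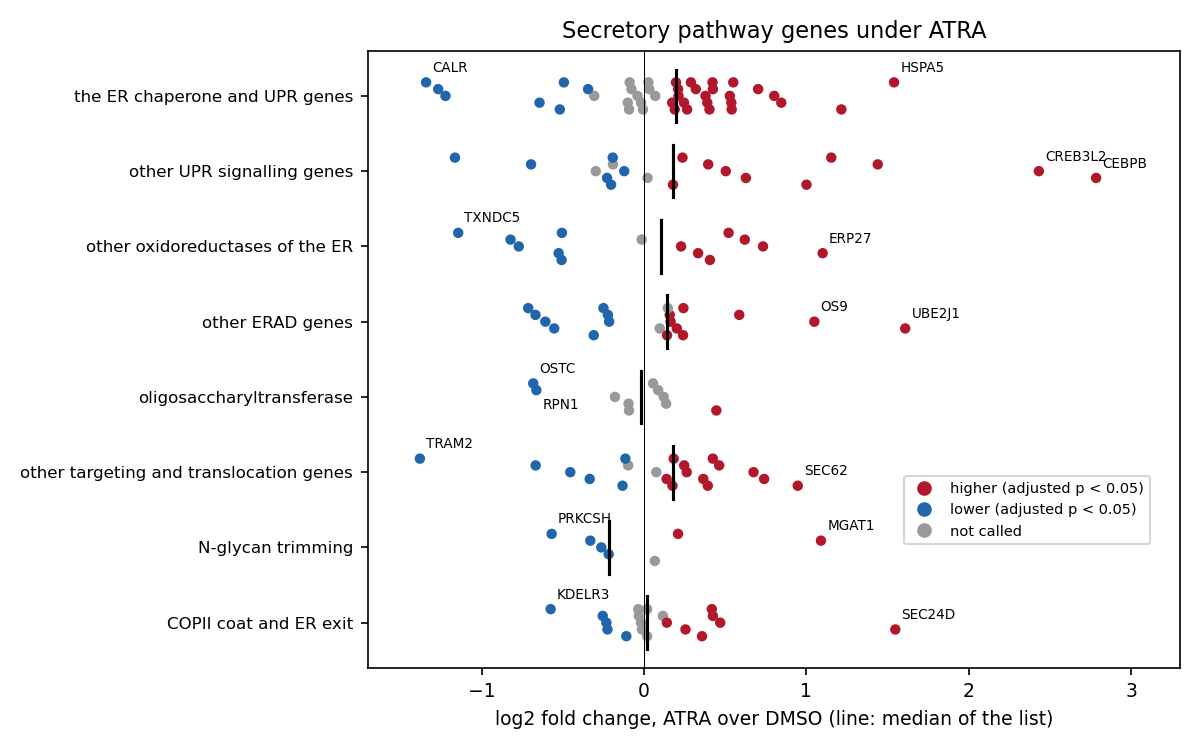
Log2 fold change in ATRA over DMSO of the 41 genes (top line) and of 7 other lists of secretory pathway genes. Points are genes coloured by call, black lines are list medians, and every list holds genes on both sides of 0.

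The comparisons of SMARCD2 knockdown with control asked whether these genes depend on the BAF subunit before and during maturation. None of the 41 genes passed the edgeR test in DMSO, in ATRA or over both treatments. In DMSO their log2 fold changes ran from -0.20 to 0.13 (median -0.02, against 0.00 for all genes), with 0 of 41 at an unadjusted p under 0.05 and a smallest adjusted p of 0.72. In that comparison 0% of all 12301 genes were called, with 868 at an unadjusted p under 0.05. In ATRA they ran from -1.06 to 0.37 (median 0.03, against 0.00 for all genes), with 3 of 41 at an unadjusted p under 0.05 and a smallest adjusted p of 0.17, where 0.00813% of all genes were called and 1329 had an unadjusted p under 0.05. Over both treatments, 4 knockdown libraries against 2, they ran from -0.61 to 0.17, with 3 of 41 and 1003 of all genes at an unadjusted p under 0.05, and 0% of all genes were called. DESeq2 called 0 of the 41 in DMSO, where it called 0.328% of the genes it gave an adjusted p, 0 over both treatments (0.39%) and 1 in ATRA (0.558%). With 1 control library per treatment, the error of a comparison within a treatment rests on the spread between the hairpins. That spread was pooled over ATRA and DMSO and drawn toward the spread of all genes, so it is not that of 1 treatment. Over both treatments the error also holds how far the knockdown effect differed between ATRA and DMSO. SMARCD2 itself, lower with both hairpins, was likewise not called by edgeR in DMSO or over both treatments. The values do not show that the genes were unaffected.

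The 3 genes at an unadjusted p under 0.05 in ATRA were CLGN, CALR and DNAJC3. CLGN had 356 and 252 counts with hairpins 1 and 2 and 389 in the smaller control library, which gave 7.30 and 5.90 against 13.8 CPM (-1.06 ± 0.17, SE, n = 2 against 1; adjusted p = 0.17). It was called by DESeq2 (adjusted p = 0.014) and by a fit with the construct as a block (adjusted p = 0.0016), which called 2.83% of all genes. In its other alternatives the adjusted p ran from 0.15 to 0.93. In DMSO CLGN was close to the control, at 9.92 and 10.3 against 11.1 CPM (-0.14 ± 0.17, adjusted p = 0.89). Over both treatments it stood at -0.61 ± 0.20 (adjusted p = 0.53), but at -0.14 without the control library of ATRA and at -1.06 without that of DMSO. CALR was higher with both hairpins in ATRA, at 459 and 506 against 392 CPM (0.30 ± 0.08, adjusted p = 0.34, but 0.016 with the block), and lower in DMSO, at 1129 and 1113 against 1182 CPM (-0.08 ± 0.08, adjusted p = 0.87). DNAJC3 stood at 129 and 152 against 114 CPM in ATRA (0.30 ± 0.10, adjusted p = 0.39), at 0.42 without hairpin 1 and 0.17 without hairpin 2. Over both treatments HSP90B1 (0.12 ± 0.05, adjusted p = 0.60) and HYOU1 (-0.11 ± 0.05, adjusted p = 0.60) also had an unadjusted p under 0.05.

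**Figure D5:**
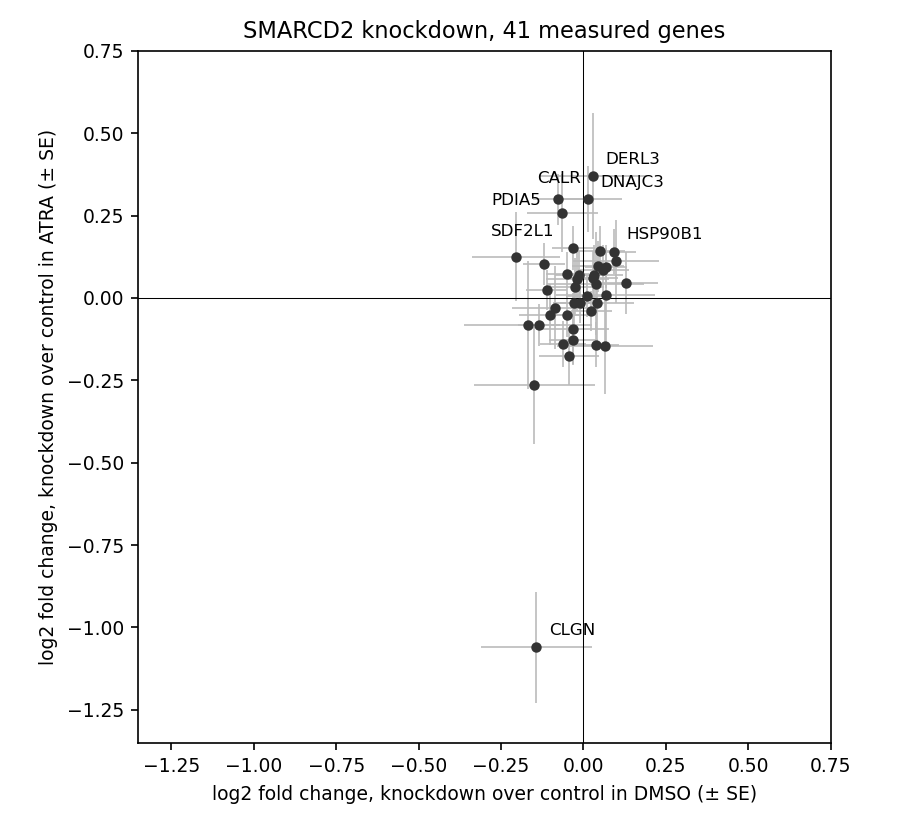
Log2 fold change of knockdown over control in DMSO (horizontal axis) and in ATRA (vertical axis) for the 41 genes, each with its SE. Along the DMSO axis the points span -0.20 to 0.13, and CLGN lies apart at -0.14 and -1.06.

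The difference in ATRA response between knockdown and control cells was called for 0 of the 41 genes by edgeR and by DESeq2. In edgeR 3 of the 41 and 979 of all 12301 genes had an unadjusted p under 0.05. EdgeR called it for 0.0488% of all genes and DESeq2 for 0.39%. With the hairpin as a block 1 of the 41, CALR, was called (0.37, adjusted p = 0.048), where 1.05% of all genes were. The labels do not say that the construct pairs the cultures. Values ran from -0.92 ± 0.24 for CLGN (adjusted p = 0.42) to 0.38 ± 0.11 for CALR (adjusted p = 0.49), and SEC61A1 stood at 0.22 (adjusted p = 0.60). HSPA5 had a difference of 0.03 ± 0.11 (adjusted p = 0.96) and XBP1 of -0.0034 ± 0.093 (adjusted p = 0.99). The authors' deposited table for ATRA calls CLGN lower with knockdown (log2 fold change -0.64, adjusted p = 3.3e-06) and CALR (0.29, adjusted p = 0.0046) and DNAJC3 (0.26, adjusted p = 0.038) higher, 3 of the 41 genes where it calls 4.17% of all genes. Their deposited table for DMSO calls 0 of the 41 and 1.14% of all genes. Each library entered those tables as 2 runs, and the labels do not say whether the authors' test took runs as samples.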

How the data were processed

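The data were RNA-seq counts per gene from 6 libraries of NB4 cells, made with GeneJET and NEBNext Ultra kits, per the labels' protocols. The submitters' processing notes name bcl2fastq, STAR, Picard 2.5.0 and DESeq2 with build GRCh37.p13, with roles not stated. Read assignment, use of strand and any removal of low genes are not given in the sources at hand, so that reads of overlapping or antisense genes may be mixed. The authors deposited raw counts per gene in 2 tables, with 2 columns per library taken as sequencing runs, which were summed. The deposited tables also hold the authors' log2 fold changes and p-values for knockdown, and 12 normalized columns were not used.

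Comparisons used the 12301 shared genes with full table totals as library sizes, filterByExpr (which removed none), TMM and the quasi-likelihood test of edgeR, adjusted by Benjamini-Hochberg (R 4.3.3, edgeR 4.0.16, limma 3.58.1, DESeq2 1.42.0, Python 3.11.15). ATRA against DMSO and knockdown over both treatments came from a fit on knockdown state and treatment. Knockdown within a treatment and the difference in ATRA response came from a fit on 4 groups, which takes each lone control to vary as the hairpin libraries do. Standard errors are the size of the log2 fold change over the root of F. The fits were run on counts simulated with known changes, as a check of the code. Those counts used a single spread for all genes and few changed genes, so they do not show how the fits do on these data. Any of the 44 genes could be named, and at most 4 genes of each other list, those with the largest changes past the threshold, together with ATF4, DDIT3, PPP1R15A, TRIB3, MBTPS1 and MBTPS2. The members and lists were chosen with earlier results of these data known. Promoter sequences were matched by symbol or RefSeq synonym, and the count tables hold no coordinates.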

Additional observations from a re-analysis of the deposited data

How the results depend on the processing

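Of the 30 genes called under ATRA, 30 kept their call and direction with DESeq2, RLE scaling, limma-voom and run 1 columns alone. With run 2 columns 28 did (SDF2L1 and ERN1 were lost), and with total counts 22. Leaving off the filter on low counts repeated the same fit, since the filter removed no gene, and so was no check. Leaving out a library gave 20 to 22 higher and 7 to 8 lower. With total counts 15 were higher and 11 lower, and the lists had 4 degradation, 7 translocation and 1 trimming gene higher and 5 oligosaccharyltransferase and 10 COPII genes lower. The lower COPII genes numbered 3 with DESeq2 and with run 2 columns, and 2 to 4 without a library. Oligosaccharyltransferase genes numbered 1 to 2 higher and 2 to 3 lower without a library. The cause of these shifts was not tested.

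Values near 0 changed sign without a call. With total counts HSP90B1 stood at -0.10, HYOU1 at -0.097 and SYVN1 at -0.060. HYOU1 stood at -0.0091 with run 2 columns. Leaving out a library gave DNAJB9 -0.083 to 0.026, PDIA4 -0.23 to 0.039, PPIB -0.075 to 0.024 and EIF2AK3 -0.025 to 0.022. EIF2AK3 also stood at 0.0086 with DESeq2, 0.0083 with RLE scaling and 0.016 with run 2 columns.

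The same hairpin appears in both treatments, but the labels do not say that its libraries came from the same cells. Deviations of a construct in ATRA and in DMSO correlated across 9467 genes at r = 0.19 for hairpin 1, 0.21 for hairpin 2 and 0.078 for the control, and each construct correlated best with itself. With the hairpin as a replicate block, 23 of the 41 genes were higher and 7 lower under ATRA. Under knockdown in ATRA 1 was higher (CALR, adjusted p = 0.016) and 1 lower (CLGN, adjusted p = 0.0016), where the block called 2.83% of all genes. In ATRA response 1 differed upward (CALR, adjusted p = 0.048), where it called 1.05% of all genes. That block sets hairpin 2 against hairpin 1, so it takes only the shared difference between the hairpins out of the error. The deviation of the lone control stays in the knockdown values. For knockdown in ATRA, DESeq2 called 1 lower. Leaving out a library gave 0 calls in each knockdown comparison, and no value could be had for a comparison without its own control library. ERN1 and DERL3 had low counts, at 163 to 282 and 108 to 606 per library. ERN1 lost its call in several settings, while DERL3 kept its call in every setting. The part of depth was not tested.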
